A study of Arabidopsis thaliana with 4 samples.

Results

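The subject is a set of 124 Arabidopsis thaliana genes that are known to the array annotation only by a locus code and whose signal lay clearly higher with dexamethasone. They were chosen from 22746 probe sets by the measured values themselves. A probe set, the group of probes that reports 1 transcript, was taken where it matched exactly 1 gene, where that gene's symbol was a locus code, and where the lower dexamethasone array stood at least 1 log2 unit above the higher untreated array. That distance between the nearest arrays of both groups is called the gap here. Of 11933 probe sets with a locus code, 127 met the rule, and AT1G22810, AT1G51820 and AT3G44450 were left out by name. The 124 that remain stand for 124 different genes, all listed as protein-coding in the reference gene table.

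All plants were Ws-0 seedlings carrying 35S:LEC1-GR, so that both groups share the transgene. At an age of 8 days, the seedlings of one group (2 arrays) were kept in a sucrose-containing liquid medium with dexamethasone at 30 µM for 1 h, and those of the other group (2 arrays) in the same medium without it. Shoot apices were dissected afterwards. The 35S promoter is active in most plant tissues, the sources used here do not say whether the plants came from 1 transgenic line, and there were no dexamethasone-treated plants without the fusion, so effects of dexamethasone and of LEC1-GR cannot be told apart.

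LEC1 is the B subunit of a nuclear factor Y (NF-Y) complex and a master regulator of embryo development. The glucocorticoid receptor domain (GR) holds the fusion protein inactive until dexamethasone binds. Transcripts that change within the first hour of such an induction include direct targets of the factor, and also fast secondary responses. Arabidopsis seedlings additionally have a large set of early-response genes, for receptors, calcium-binding proteins and cell wall enzymes, that react within minutes to touch, wounding, cold or microbial molecules.

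The values are log2 expression values from robust multi-array averaging (RMA), as deposited by the authors, and a difference of 1 is a 2-fold change. The arrays correlated at 0.992 within the dexamethasone group, at 0.983 within the untreated group and at 0.969 to 0.979 between groups. A control level was set for each array at its brightest of 27 probe sets for Bacillus transcripts, and it was 4.74 and 4.79 in the dexamethasone arrays and 4.68 and 4.86 in the untreated arrays. The labelled tissue was checked on the few markers that a probe set matched alone. LHCB4.1, of the light-harvesting antenna of green tissue, read 13.28 and 13.41 with dexamethasone, against 13.28 and 13.35 without it. YAB3, of leaf primordia, read 7.81 and 7.66 with dexamethasone, against 7.79 and 7.82 without it. CLV3, which marks the stem cells of the shoot meristem, did not exceed the control level in 3 of the 4 arrays, so the meristem itself was not visible through it. Of 5 root markers, AGL21 and AGL42 never exceeded the control level and PYK10, of the root and hypocotyl, read 11.82 and 12.01 with dexamethasone, against 11.57 and 12.28 without it. The root hair expansin genes EXPA7 and EXPA18 stood highest in untreated replicate 2. EXPA7 read 4.59 and 4.97 with dexamethasone, against 5.03 and 6.25 in untreated replicates 1 and 2, and only its dexamethasone replicate 1 was below the control level. EXPA18 read 4.98 and 5.20 with dexamethasone, against 4.86 and 6.46 in untreated replicates 1 and 2, all above that level. The 5 root markers averaged 5.76 and 5.95 with dexamethasone, against 5.80 and 6.57 in untreated replicates 1 and 2. In bulk tissue, fewer cells of a type and less RNA per cell cannot be told apart.

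Across the 124 genes the log2 difference (dexamethasone minus none) ran from 1.10 to 2.95, with a median of 1.58, which is a 2.99-fold higher signal. The median over all 22746 probe sets was -0.02. The difference reached 2 in 19 genes, lay between 1.5 and 2 in 57 and was under 1.5 in 48. These values chose the genes and are a description, with no test. For scale, 1.29% of all probe sets met the same gap with dexamethasone higher, and 0.624% with dexamethasone lower. Among locus-code probe sets the shares were 1.06% and 0.419%, and among the 1580 probe sets whose gene has another symbol they were 1.08% and 0.823%. In limma with Benjamini-Hochberg adjustment, 90 of the 124 were also called higher, beside 1.49% of all probe sets. The call rests on the same contrast as the rule, so nothing is read from it. Without either dexamethasone array limma called 0 of the 124, and 0 of all probe sets (2672 and 2448 at an unadjusted p below 0.05 without replicate 1 and without replicate 2).

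**Figure D1:**
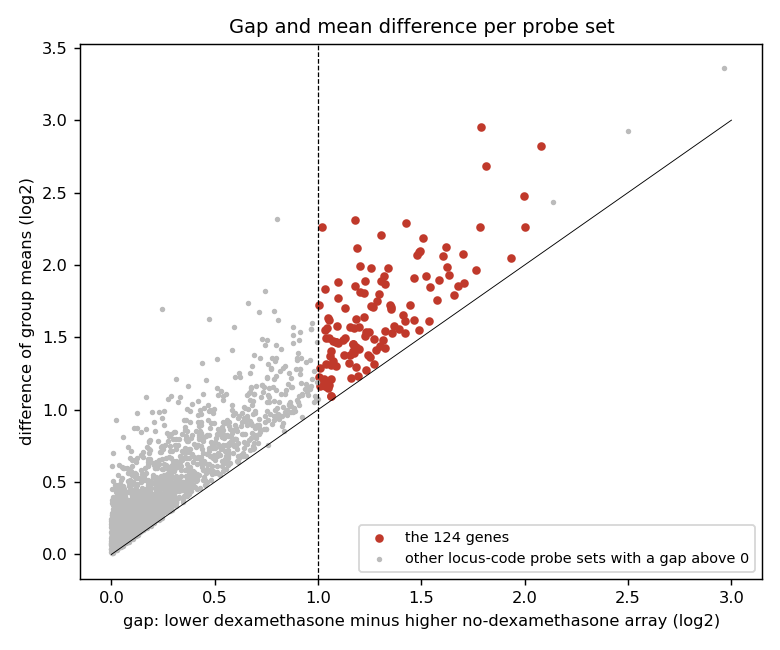
Each point is a locus-code probe set whose arrays did not overlap, with the gap on the x axis and the difference of group means on the y axis, both in log2 units. The dashed line is the threshold of 1, the solid line marks equality (no spread within the groups), the 124 genes are red, and the 3 grey points right of the threshold are the genes left out by name. The genes crowd near the threshold, with a median gap of 1.23 and a highest gap of 2.08.

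The threshold cuts through a continuous range of values. Just inside it were the leucine-rich repeat gene AT2G34930 with a gap of 1.004, the ERF-type transcription factor gene AT5G52020 with 1.004 and the aspartyl protease gene AT1G65240 with 1.009. AT5G13200, AT1G66880 and AT4G27720 were just outside, with gaps of 0.994, 0.995 and 0.998. A gap of at least 1.5 was reached by 22 of the 124.

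The roles below are the general knowledge of each Arabidopsis gene or family, not a column of the deposited values, and the grouping was made after the values were seen. A role was given to 90 genes in 10 groups, and 34 genes are listed without one. How often each group occurs among all genes on the array was not counted, so no group is said to be over-represented. The differences of the groups overlapped widely, with medians between 1.45 for the regulators and 2.04 for the oxygenases.

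**Figure D2:**
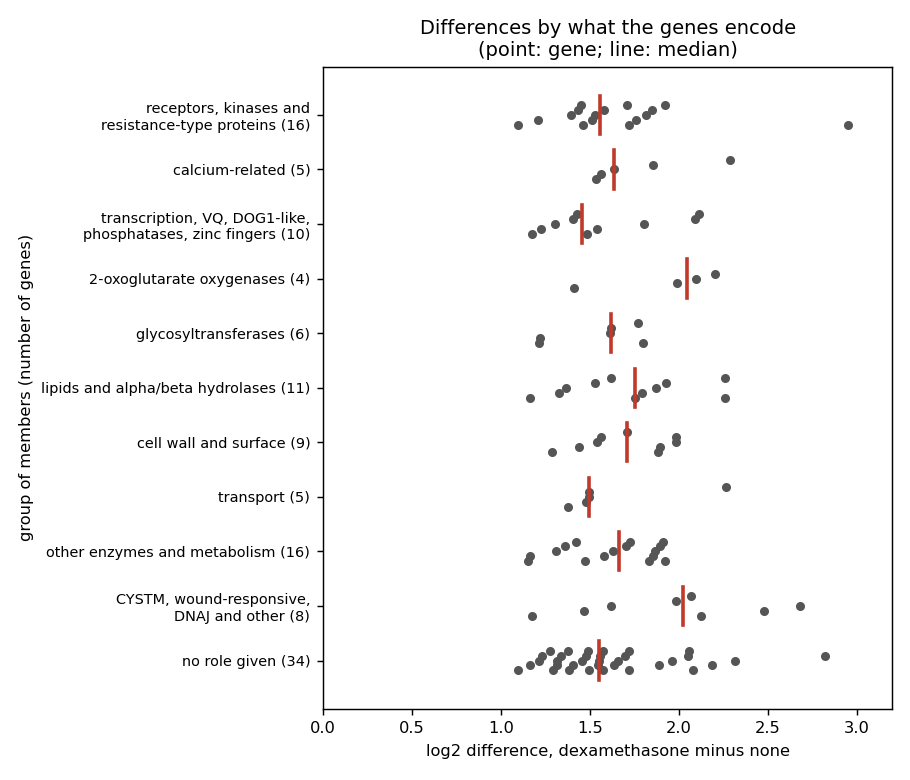
The x axis gives the log2 difference (dexamethasone minus none), each point is a gene, the rows are the groups by what the genes encode, with the number of genes in brackets, and the red line is the group's median. The groups overlap widely. The receptor group, which also holds secreted DUF26-family proteins, runs from 1.10 to 2.95, and its highest point is the secreted protein gene AT3G22060. The genes without a given role run from 1.10 to 2.82.

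Genes for receptors, kinases, resistance-type proteins and some secreted or regulatory proteins placed with them made up 16 of the 124, with a median difference of 1.55. Plant receptors of this kind sit in the plasma membrane, bind microbial or endogenous molecules outside the cell and start immune signalling, while TIR-type resistance proteins act inside the cell. The largest difference of all 124 belonged to AT3G22060, for a secreted cysteine-rich repeat protein of the DUF26 family. It read 10.57 and 10.52 in the dexamethasone arrays, against 8.73 and 6.46 in the untreated arrays, a difference of 2.95 ± 0.72 (limma's standard error), or 7.73-fold. The dexamethasone arrays lay almost together and the untreated arrays far apart, and without untreated replicate 2 the difference was 1.82. AT5G48540, of the same family, read 9.81 and 10.12 with dexamethasone, against 8.54 and 7.97 without it, with untreated arrays that lay closer together.

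Among the receptor kinases, AT4G08850 encodes MIK2, a leucine-rich repeat kinase that perceives SCOOP peptides in immunity. It read 10.54 and 10.34 in the dexamethasone arrays, against 9.11 and 8.75 in the untreated arrays, a difference of 1.51 ± 0.18. The leucine-rich repeat receptor kinase gene AT5G25930 read 9.16 and 9.05 with dexamethasone, against 7.22 and 7.48 without it. In both genes the groups were further apart than the replicates. AT1G18390, for a receptor-like kinase of the LRK10L type, was higher by 1.39, at 7.15 and 6.96 with dexamethasone, against 5.54 and 5.78 without it. A second probe set for AT1G18390, which the rule did not choose, showed a smaller difference of 0.99, with 8.96 and 8.48 with dexamethasone, against 7.45 and 8.01 without it. AT4G18950, for a Raf-like kinase with ankyrin repeats, was higher by 1.44 and the lectin-domain gene AT5G03700 by 1.53. The kinase gene AT3G57700 read 5.76 and 6.27 with dexamethasone, against 4.44 and 4.66 without it. Neither untreated array exceeded the control level, so its fold is given as at least 2.36, with each such array set to that level.

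Of the genes for leucine-rich repeat proteins that are not placed among the kinases, AT1G33600 read 10.84 and 10.40 in the dexamethasone arrays, against 8.86 and 8.68 in the untreated arrays, a difference of 1.85 ± 0.19. AT2G34930 and AT2G15042 were higher by 1.72 and 1.58. The intracellular resistance-type genes were AT5G44910 with a TIR domain (1.81), AT1G63750 of the TIR-NBS-LRR type (1.21) and AT1G72800 of the TIR-NBS type (1.10). AT1G72800 had the smallest difference in the group, yet its arrays were the tightest, at 8.19 and 8.19 with dexamethasone, against 7.06 and 7.13 without it. AT5G05190 encodes EDR4, which restrains resistance to powdery mildew, and it read 8.87 and 8.81 in the dexamethasone arrays, against 7.28 and 6.54 in the untreated arrays, a difference of 1.92 ± 0.26. AT2G17660, of the family of RIN4, an immune protein guarded by resistance proteins, was higher by 1.45, with 1 untreated array below the control level.

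Calcium-related genes numbered 5. A rise of calcium in the cytosol is an early step of touch, cold and immune signalling, and calmodulin-like proteins bind it. AT4G34150, for a C2-domain protein of the calcium-dependent lipid-binding type, read 10.79 and 10.07 in the dexamethasone arrays, against 7.64 and 8.65 in the untreated arrays, a difference of 2.29 ± 0.40. Its untreated replicate 2 was the higher one, as in only 4 of the 25 genes with the largest differences. AT1G11960 encodes a calcium-permeable channel of the OSCA type that acts in stomatal immunity, and it read 9.51 and 9.73 in the dexamethasone arrays, against 7.83 and 7.70 in the untreated arrays, a difference of 1.86 ± 0.14. Its replicates lay close together in both groups. The calmodulin-like gene AT2G41090 read 10.77 and 10.61 with dexamethasone, against 9.39 and 8.71 without it, and the EF-hand gene AT1G21550 read 6.35 and 6.82 with dexamethasone, against 5.17 and 4.87 without it. AT1G76640, for which the reference gene table gives CML39 as a synonym, read 6.31 and 5.74 with dexamethasone, against 4.51 and 4.47 without it, and as neither untreated array exceeded the control level its fold was at least 2.38.

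The regulators numbered 10. VQ-motif proteins bind WRKY transcription factors, and 2 of their genes are in the set. AT2G22880 read 10.37 and 10.04 in the dexamethasone arrays, against 8.55 and 7.67 in the untreated arrays, a difference of 2.09 ± 0.32. AT1G80450 read 7.19 and 6.07 with dexamethasone, against 4.80 and 4.85 without it. Its untreated replicate 2 was just below the control level and its untreated replicate 1 close to it. Its dexamethasone arrays were more than 1 unit apart. AT2G44940 and AT5G52020, for transcription factors of the ERF/AP2 family, were higher by 1.54 and 1.23.

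AT4G18650 belongs to the small family of DOG1, a regulator of seed dormancy. It read 6.42 and 8.15 in the dexamethasone arrays, against 5.23 and 5.11 in the untreated arrays, a difference of 2.11 ± 0.56. This gene had the widest dexamethasone pair of all 124. Its difference was 1.25 without dexamethasone replicate 2 and 2.98 without dexamethasone replicate 1. Protein phosphatases of type 2C reverse kinase signals, and their genes AT1G07160 and AT1G34750 were higher by 1.41 and 1.17. Untreated replicate 2 of AT1G07160 was just below the control level. The RING-type gene AT1G63840, for a candidate ubiquitin ligase, was higher by 1.48. The zinc finger genes AT2G44670, of the FLZ type, and AT3G52800, of the A20/AN1 stress-associated type, were higher by 1.43 and 1.301.

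Oxygenases that use 2-oxoglutarate were encoded by 4 genes with a median difference of 2.04. Such enzymes make or inactivate hormones and specialised metabolites. AT5G05600 encodes one that hydroxylates and thereby inactivates jasmonate, the wound hormone, and it read 9.62 and 10.07 in the dexamethasone arrays, against 8.32 and 6.97 in the untreated arrays, a difference of 2.20 ± 0.46. AT2G36690, for an oxygenase linked to germination in the presence of abscisic acid, read 9.09 and 8.28 in the dexamethasone arrays, against 6.39 and 6.79 in the untreated arrays, a difference of 2.10 ± 0.31. AT3G60290 read 8.17 and 8.02 with dexamethasone, against 6.81 and 5.39 without it, and without untreated replicate 2 its difference was 1.28 in place of 1.99. AT3G19010 was higher by 1.41, with both dexamethasone arrays at 10.50.

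Glycosyltransferases were encoded by 6 genes. UDP-dependent ones attach sugars to small molecules, and AT1G06000 encodes one that adds rhamnose to flavonols. It read 7.67 and 7.68 in the dexamethasone arrays, against 6.14 and 5.99 in the untreated arrays, a difference of 1.61 ± 0.13. AT2G16890 and AT4G09500, of the same superfamily, were higher by 1.77 and 1.62. The O-fucosyltransferase family genes AT3G05320 and AT5G65470 were higher by 1.80 and 1.21, and AT4G30060, of the core-2/I-branching type, by 1.22. All 6 read higher in untreated replicate 1 than in untreated replicate 2, beside 72.6% of the 124 genes.

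Lipid-related genes and genes for alpha/beta hydrolases, a fold shared by many lipases and esterases, numbered 11 with a median difference of 1.75. AT4G22470, for a proline-rich lipid-transfer protein, read 8.42 and 8.01 in the dexamethasone arrays, against 5.90 and 6.01 in the untreated arrays, a difference of 2.26 ± 0.18. AT2G16900, of the phospholipase-like PEARLI4 family, read 9.47 and 9.45 in the dexamethasone arrays, against 7.66 and 6.73 in the untreated arrays, a difference of 2.26 ± 0.32. Its dexamethasone arrays nearly coincided while its untreated arrays did not. AT4G39670, of the glycolipid transfer family, read 8.38 and 7.88 in the dexamethasone arrays, against 6.25 and 6.15 in the untreated arrays, a difference of 1.93 ± 0.20.

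Of the 5 hydrolase genes, AT1G68620 had the largest difference (1.87 ± 0.15), followed by AT3G15650 (1.79 ± 0.14), and both had closely spaced arrays. AT1G73480 and AT5G11650, for hydrolases of the monoacylglycerol lipase type, were higher by 1.75 and 1.62. AT4G24160, whose product is of the CGI-58 type and acts on phospholipids and triacylglycerol, was higher by 1.53. AT1G67360 and AT3G05500 encode proteins of the rubber elongation factor family that coat lipid droplets. AT1G67360 read 8.29 and 8.88 with dexamethasone, against 7.23 and 7.21 without it, and AT3G05500 read 10.56 and 10.72 with dexamethasone, against 9.44 and 9.52 without it. AT3G25610, for a P4-ATPase that flips phospholipids between membrane leaflets, was higher by 1.32.

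Cell wall and cell surface genes numbered 9. AT4G20860 and AT4G20830 encode oxidases related to the berberine bridge enzyme that inactivate cell wall fragments. AT4G20860, whose enzyme oxidises cellodextrins, read 10.64 and 10.40 in the dexamethasone arrays, against 8.78 and 8.29 in the untreated arrays, a difference of 1.98 ± 0.21. AT4G20830, whose enzyme oxidises oligogalacturonides, read 11.33 and 11.04 with dexamethasone, against 9.99 and 9.25 without it, a difference of 1.56 ± 0.28. A probe set that AT4G20830 shares with AT4G20840 went the other way, with 5.60 and 5.65 with dexamethasone, against 6.57 and 5.90 without it. The shared probe set also read far lower, and which gene it reports was not tested. Only the first probe set was matched to AT4G20830 alone.

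AT5G19240, for a GPI-anchored glycoprotein of the cell surface, read 10.37 and 10.45 in the dexamethasone arrays, against 9.03 and 7.83 in the untreated arrays, a difference of 1.98 ± 0.39. Genes for wall-degrading and defence hydrolases were AT3G04010 (1.89) and AT3G55430 (1.44), both of the beta-1,3-glucanase type, and AT4G01700 of the chitinase family (1.88). The chitinase gene read 8.91 and 7.85 with dexamethasone, against 6.75 and 6.24 without it, with dexamethasone arrays more than 1 unit apart. The remaining surface genes were AT5G49280 for a hydroxyproline-rich glycoprotein (1.71), AT5G28630 for a glycine-rich protein (1.54) and AT3G52470 of the NDR1/HIN1-like type (1.29).

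Genes for transport and membrane redox proteins numbered 5. All 5 read higher in untreated replicate 1 than in untreated replicate 2, beside 72.6% of the 124 genes. AT1G51090, for a protein with a heavy-metal-associated domain, read 7.91 and 8.35 in the dexamethasone arrays, against 6.89 and 4.84 in the untreated arrays. The distance between its untreated arrays was exceeded only by that of AT3G22060. The difference of 2.26 ± 0.67 was 1.24 without untreated replicate 2. It was 3.29 without untreated replicate 1, where only an untreated array just below the control level remains. AT1G61890 and AT1G33110, for efflux carriers of the MATE type, were higher by 1.48 and 1.38. AT2G36630, of the sulfite exporter TauE/SafE family, was higher by 1.495. AT5G35735, for a membrane protein with cytochrome b561 and DOMON domains, read 12.02 and 11.64 with dexamethasone, against 10.51 and 10.16 without it.

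Other enzymes and metabolic genes numbered 16. AT5G15950 encodes an S-adenosylmethionine decarboxylase, which supplies the aminopropyl groups of polyamines, and it read 9.73 and 9.45 in the dexamethasone arrays, against 7.86 and 7.53 in the untreated arrays, a difference of 1.89 ± 0.18. AT5G38710, for a proline dehydrogenase that starts proline breakdown, read 6.65 and 7.09 with dexamethasone, against 5.59 and 5.53 without it. AT1G64500 and AT4G33040, of the glutaredoxin family, were higher by 1.91 and 1.15. AT3G57020 and AT3G51450, for strictosidine synthase-like proteins, were higher by 1.92 and 1.58. The acyltransferase genes AT2G39980, of the HXXXD type, and AT2G32030, of the GNAT type, were higher by 1.73 and 1.86.

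AT2G04039 encodes the subunit NdhV of the chloroplast NDH complex of cyclic electron flow, and it read 9.24 and 10.08 with dexamethasone, against 7.80 and 8.11 without it. The methyltransferase genes AT2G43320 and AT1G55450 were higher by 1.42 and 1.36, and AT1G55450 had untreated arrays at 10.58 and 10.60. AT3G49160, of the pyruvate kinase family, had 1 untreated array below the control level, and its difference of 1.83 was 1.15 without untreated replicate 2. It was 2.52 without untreated replicate 1, where only the untreated array below that level remains. The last 4 were AT3G51660 for a MIF-like tautomerase (1.86), AT5G59480 for a HAD-type hydrolase (1.63), AT3G44190 for an FAD-binding oxidoreductase (1.47) and AT1G65240 for the aspartyl protease named above (1.16).

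The last group with a role held 8 genes for short stress-related proteins, co-chaperones and others, with a median difference of 2.02. CYSTM proteins are short cysteine-rich membrane proteins of stress tolerance. AT2G32190 read 9.51 and 8.83 in the dexamethasone arrays, against 7.02 and 5.96 in the untreated arrays, a difference of 2.68 ± 0.41, or 6.41-fold. A probe set shared by AT2G32190 and its close relative AT2G32210, which the rule did not use, also stood higher, at 10.19 and 9.18 with dexamethasone, against 7.64 and 6.86 without it. AT1G56060, of the same CYSTM type, read 7.86 and 7.43 in the dexamethasone arrays, against 5.95 and 5.20 in the untreated arrays, a difference of 2.07 ± 0.30.

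AT2G21510, for a co-chaperone with a DNAJ domain, read 7.93 and 8.68 in the dexamethasone arrays, against 5.93 and 5.72 in the untreated arrays, a difference of 2.48 ± 0.27, or 5.58-fold. The other DNAJ gene, AT3G14200, was higher by 1.47. AT2G19650, for a protein rich in cysteine and histidine with C1 domains, read 7.81 and 7.64 in the dexamethasone arrays, against 6.03 and 5.18 in the untreated arrays, a difference of 2.12 ± 0.30. AT4G10270, of the wound-responsive family, read 7.63 and 6.997 with dexamethasone, against 5.74 and 4.93 without it, a difference of 1.98 ± 0.35. AT4G35985, of the senescence and dehydration-associated family, and AT3G15810, of the LURP-one-related family, were higher by 1.62 and 1.17. All 8 genes read higher in untreated replicate 1 than in untreated replicate 2. The same held for 5 of the 10 regulators, 7 of the 11 lipid-related genes and 11 of the 16 genes of the receptor group. It held for 12 of the 16 metabolic genes, 7 of the 9 cell wall genes, 4 of the 5 calcium-related genes and 22 of the 34 without a role. The share was 72.6% over the 124 genes and 51.1% over all probe sets. The groups are small and were made after the values were seen, so no difference between them is read.

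The 34 genes without a given role had a median difference of 1.55, close to that of the whole set. AT1G65490 had the second largest difference of the 124 and the widest gap, 2.08. It read 9.45 and 9.84 in the dexamethasone arrays, against 7.37 and 6.28 in the untreated arrays, a difference of 2.82 ± 0.38, or 7.07-fold. AT1G15010 read 10.34 and 10.82 with dexamethasone, against 9.16 and 7.38 without it. The difference was 2.31 ± 0.59, and 1.42 without untreated replicate 2. AT5G64850 read 9.79 and 10.15 in the dexamethasone arrays, against 8.28 and 7.29 in the untreated arrays, a difference of 2.18 ± 0.35. In these genes untreated replicate 1 was the higher untreated array.

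AT3G60520 was the most even of the large differences, with 10.17 and 10.21 with dexamethasone, against 8.05 and 8.24 without it, a difference of 2.05 ± 0.13. AT1G19020 read 12.41 and 12.18 in the dexamethasone arrays, against 10.41 and 10.25 in the untreated arrays, a difference of 1.96 ± 0.15, with replicates far closer to each other than to the other group. AT1G56660 was higher by 2.08 ± 0.21, at 7.93 and 8.29 with dexamethasone, against 6.23 and 5.84 without it. AT5G16200 was higher by 2.06 ± 0.23, at 8.64 and 8.22 with dexamethasone, against 6.62 and 6.13 without it. The 4 genes kept the groups at least 1.6 units apart.

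Among the others without a role, differences between 1.5 and 2 were seen for AT4G24700 (1.89), AT3G56290 (1.72), AT5G12010 (1.72), AT1G50740 (1.70), AT3G19240 (1.66), AT4G28085 (1.63), AT4G12000 (1.57), AT5G56980 (1.57), AT5G19875 (1.56), AT3G01060 (1.55) and AT2G41120 (1.55). Smaller differences, from 1.496 down to 1.10, belonged to AT1G74440, AT1G74055, AT1G66510, AT1G17360, AT3G26910, AT1G76070, AT5G10695, AT4G22980, AT1G49450, AT2G36220, AT1G11210, AT2G15020, AT1G78280, AT4G16140, AT4G39840 and AT1G70420. AT2G15020 lay near or below the control level in its arrays. It read 5.23 and 5.30 with dexamethasone, against 3.998 and 3.98 without it, with both untreated arrays below that level, so its fold was at least 1.41 in place of 2.42. AT4G24700, AT4G22980 and AT1G49450 each had 1 untreated array below the control level. With that array set to the level, the difference of AT4G24700 was 1.80. In all, 113 of the 124 genes lay above the control level in all 4 arrays, 8 had 1 untreated array at or below it and 3 had both there.

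**Figure D3:**
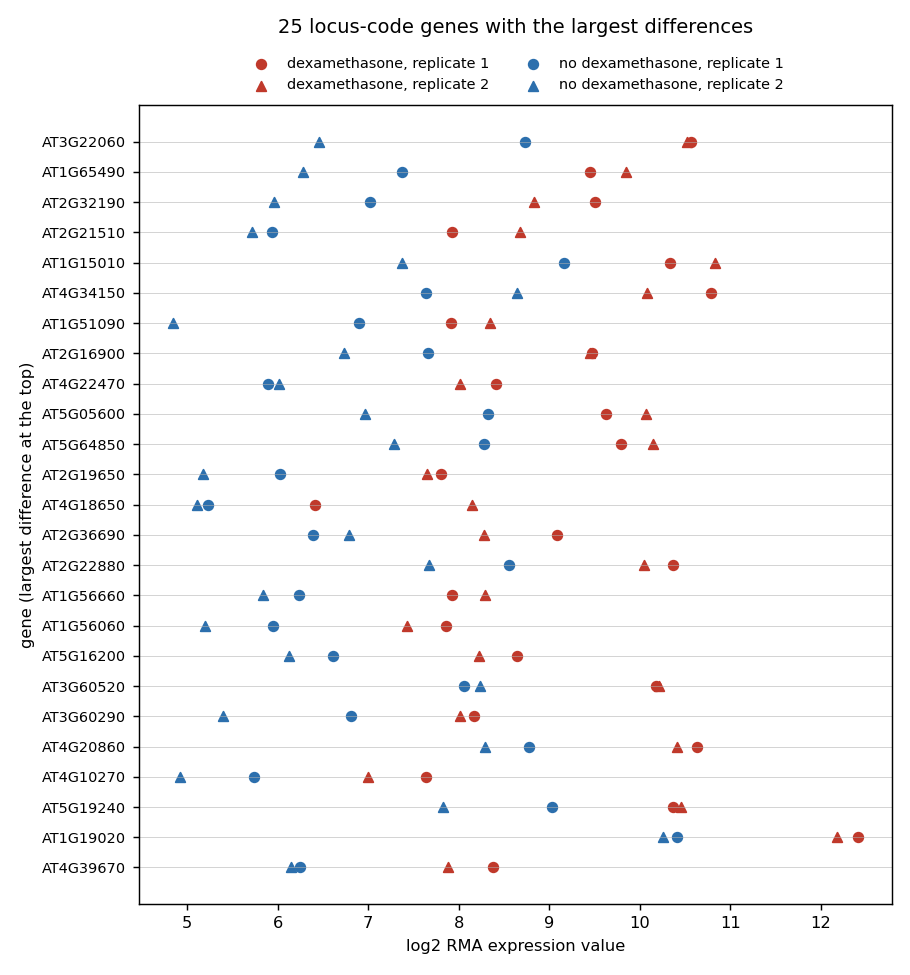
The x axis is the log2 RMA value, and each row is one of the 25 genes with the largest differences, in falling order. Red symbols are the dexamethasone arrays and blue symbols the untreated arrays, with circles for replicate 1 and triangles for replicate 2. Red and blue do not overlap in any row, which the rule requires, and the blue circle lies right of the blue triangle in most rows, by 2.27 in AT3G22060.

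The untreated arrays were not alike over these genes. The rule did not set which untreated array is the higher one, but it used these values, so the counts are a description. Over all probe sets untreated replicate 2 correlated less with the dexamethasone arrays (0.969 and 0.972) than untreated replicate 1 did (0.979 and 0.977). The order of the untreated arrays in other probe sets that meet the gap was not counted. Untreated replicate 1 was the higher untreated array in 90 of the 124 genes, or 72.6%, beside 51.1% of all probe sets. The median of replicate 1 minus replicate 2 was 0.23 over the 124 genes and 0.01 over all probe sets. The untreated replicates were at least 1 unit apart in 12 of the 124 genes, beside 2.92% of all probe sets. Replicate 1 was the higher one in 11 of the 12. The dexamethasone arrays were closer to balance, with replicate 1 higher in 68 of the 124 genes, beside 48.2% of all probe sets. Their median of replicate 1 minus replicate 2 was 0.03 over the 124 genes. Against untreated replicate 1 alone the median difference of the 124 genes was 1.47, and against untreated replicate 2 alone it was 1.71. Leaving out 1 array moved the difference by over 1.5 times in 6 genes, in 5 of them through untreated replicate 2 and in AT4G18650 through dexamethasone replicate 2. EXPA7 and EXPA18 read highest in untreated replicate 2, the lower untreated array in most of the 124 genes, at 6.25 and 6.46. The part of root tissue in these differences was not tested.

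**Figure D4:**
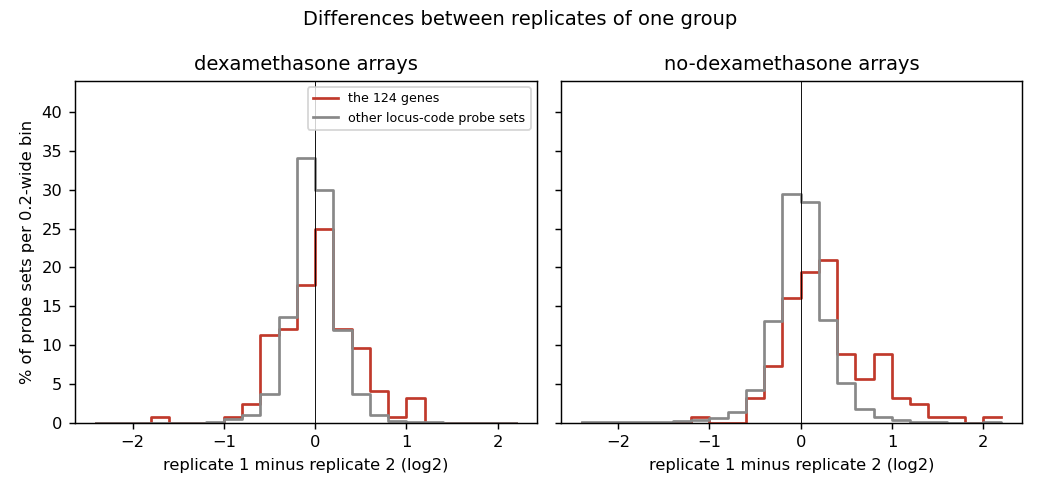
The x axis is replicate 1 minus replicate 2 in log2 units, for the dexamethasone arrays on the left and the untreated arrays on the right, and the y axis is the share of probe sets in each bin. The 124 genes are red and the other locus-code probe sets grey. In the untreated panel the red line is shifted to the right, with a median of 0.23, while in the dexamethasone panel its median is 0.03.

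A list of 34 genes known to respond fast to touch, wounding or immune signals was set beside the 124, because several of the 124 belong to families of these pathways. The list was written with earlier results of these arrays known, and none of its genes is among the 124. The rule takes only genes whose symbol is a locus code, so a gene with another symbol could not be there. Only 9 of the 34 had a probe set of their own, and limma with Benjamini-Hochberg adjustment called 4 of the 9 higher and 0 lower (0 lower also at an unadjusted p below 0.05), beside 1.49% and 0.879% of all probe sets. The list's median difference was 1.05. Because earlier results were known when the list was written, its excess over all probe sets could be built in. These calls are a description, and nothing is read from them. Called were OPCL1 of jasmonate synthesis, the ubiquitin ligase gene PUB24 and the immune genes BIK1 and EFR. PUB22, of the same ligase family, read 9.64 and 9.36 with dexamethasone, against 8.41 and 7.72 without it, and was not called (limma adjusted p = 0.0708). WRKY53, STZ, CML38 and PUB23 were not called either (limma adjusted p = 0.228, 0.500, 0.459 and 0.602). In STZ, CML38 and PUB23 untreated replicate 1 (10.90, 9.94 and 8.24) stood above dexamethasone replicate 2 (10.77, 9.88 and 7.89). The 9 genes averaged 9.33 and 8.93 in the dexamethasone arrays, against 8.34 and 7.68 in untreated replicates 1 and 2. All 9 were higher in untreated replicate 1 than in untreated replicate 2, as were most of the 124. The part of such a handling or touch response in the differences of the 124 genes was not tested.

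Direct neighbours on the chromosomes were compared through the gene order of the reference table (assembly TAIR10.1), with protein-coding genes only. Where a neighbour had several probe sets of its own, the one with the most positive difference was taken. That choice favours higher calls over lower ones, and how many neighbours it touched was not counted. AT2G16890 and AT2G16900 were the only pair of next neighbours among the 124, and they were higher by 1.77 and 2.26. Of 114 measured next neighbours that are not among the 124, limma with Benjamini-Hochberg adjustment called 1 higher and 2 lower, beside 1.49% and 0.879% of all probe sets, and their median difference was -0.01. The 1 higher neighbour was AT5G19250, for a GPI-anchored glycoprotein like that of AT5G19240 beside it. It read 10.32 and 10.20 with dexamethasone, against 9.25 and 8.94 without it, and rose by 1.16 ± 0.16 (limma adjusted p = 0.0411). The 2 lower ones were the starch enzyme gene DPE1 beside AT5G64850, which fell by 1.16 (limma adjusted p = 0.0306), and the glycosyltransferase gene UGT85A4 beside AT1G78280, which fell by 1.19 (limma adjusted p = 0.0409). CML38, next to the calmodulin-like gene AT1G76640, read 10.36 and 9.88 with dexamethasone, against 9.94 and 8.20 without it, and was not called (limma adjusted p = 0.459).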

How the data were processed

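Shoot apices were measured on 4 arrays, 2 per group, with groups and replicate numbers taken from the sample titles. The authors deposited 1 log2 value per probe set and array, made with RMA in the affy package per the submitters' processing notes. The sources used here name no versions or filters. RMA sets the arrays to a common distribution, which hides any change common to all transcripts. Arrays have no read depth, and their number limits the precision. The 64 AFFX control probe sets were left out of 22810. Probe sets were named from the platform annotation, where 13513 matched 1 gene, and all 124 chosen genes were found in the reference gene table.

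The genes and lists were chosen with earlier results of these data known. limma 3.58.1 in R 4.3.3 (lmFit, eBayes, two-sided, Benjamini-Hochberg over 22746 probe sets, adjusted p threshold 0.05) gave standard errors and calls. Its calls for the chosen genes rest on the contrast that chose them and are given as counts only. Those of the touch and wound list, written with earlier results known, are a description too. Tests are read for the tissue markers and the chromosomal neighbours. Any chosen gene could be named, with every array value for the 25 largest differences, and by rule up to 4 per group, the 3 genes nearest the threshold on either side and second probe sets. Array values of further genes, among them several in the receptor group, were added after they were seen. The remaining genes were named to account for all. Groups by words in product descriptions, promoter motifs and protein comparisons were planned but not run, because the tables used here hold no descriptions or sequences, and roles were assigned from general knowledge instead. Of the marker lists, 1 of 7 meristem, 0 of 3 epidermis, 1 of 4 leaf primordium, 1 of 3 green leaf, 5 of 6 root and 0 of 4 embryo genes had a probe set of their own, and limma called none of these 8 (0 also at an unadjusted p below 0.05). The replicates are called biological by the series design text.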

Additional observations from a re-analysis of the deposited data

How the results depend on the processing

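The number of genes found by the rule was 124. It was 204 with a gap of 0.8, 22 with a gap of 1.5 and 271 when the group means had to differ by 1, and leaving out 1 array gave 173 to 276, because a minimum over fewer arrays is easier to meet. It was 127 after a repeated quantile normalization, 131 after median centring (123 shared in both), 123 without the dimmest 30% of probe sets and 124 with current symbols. The median difference of 1.58 ranged from 1.47 to 1.71 without 1 array and was 1.59 and 1.58 under the scalings. Setting dim arrays to the control level left it at 1.58. For single genes, 868 alternative values were computed, and none changed sign. Leaving out 1 array cannot change the sign of genes whose arrays do not overlap. A replicate block leaves the differences as they are in this balanced design. Setting dim arrays to the control level cannot reverse them either, because every dexamethasone array of the 124 genes exceeded that level. Only the repeated quantile normalization could have changed a sign. In limma 339 probe sets were higher and 200 lower. A replicate block gave 559 higher and 300 lower probe sets, and called 111 of the 124 genes in place of 90. Same-numbered replicates deviated together only weakly (correlation 0.227 across probe sets, from 2 pairs), and the numbers were taken as names. With 1 array fewer, limma's counts lay between 0 and 734 for higher and between 0 and 458 for lower probe sets; such a fit takes the spread of the single array from the pair that is left. The cause was not tested. Signal near the control level limits the 11 genes with a dim untreated array.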
